A study of Mesocricetus auratus with 6 samples.

Results

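The *duper* hamster is a Syrian hamster (Mesocricetus auratus) whose free-running rhythm is short and whose *Cry1* gene carries a recessive loss-of-function mutation. Cortex RNA of *duper* hamsters was set against cortex RNA of wild-type hamsters, gene by gene, for the 15136 of 31593 genes whose mean over both cortex libraries reached 1 TPM with 30 or more estimated counts in all. TPM is a level scaled for transcript length and library total, so that levels of different genes can be compared. RNA of 4 hamsters of a genotype was mixed before a single library was made, so there was 1 library per genotype and no replicate check of any difference. All hamsters came from the Lakeview (LVG) ecotype, were raised in 14 h of light and 10 h of darkness, and were sampled at circadian time 15, early in the subjective night. The *duper* group carried the mutation alone, without the tau allele, and its line had been bred apart from the wild-type stock. Ages were not given in the sources used here. All *duper* hamsters were female, whereas the wild-type pool held both sexes. The effect of the mutation therefore cannot be told apart from differences of sex, line, dissection or library.

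CRY1 is a repressor in the circadian feedback loop. CLOCK and its partner BMAL1 (symbol *Arntl*) drive the Per and Cry genes, and the PER and CRY proteins return to the nucleus to inhibit them. Most cells of the brain run this loop, those of the cortex included. Cortex holds glutamatergic projection neurons, GABAergic interneurons, astrocytes, oligodendrocytes, microglia and vessels. It lies over the white matter, the striatum and the lateral ventricle, whose wall of ciliated ependymal cells and choroid plexus makes and moves cerebrospinal fluid. In a bulk sample, fewer cells of a type and less RNA per cell cannot be told apart.

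The deposited estimated counts summed to 6788947 in wild-type cortex against 10391925 in *duper* cortex. Each ratio below is the log2 of *duper* TPM plus 1 over wild-type TPM plus 1, and is positive where *duper* was higher. Beside it stands a 95% Clopper-Pearson interval of the ratio without the added 1, which covers counting error only and not the spread between hamsters. The median ratio over the 15136 members was 0.03, the 5th percentile was −0.50 and the 95th was 0.56. A ratio over 0.58 or under −0.58, which is about 1.5-fold, was found for 709 members higher in *duper* (4.68%) and 545 lower (3.60%). The interval of 620 of the higher and 472 of the lower members also excluded 0. Leaving fold aside, the interval lay above 0 for 2758 members (18.2%) and below 0 for 1959 (12.9%). It lay wholly beyond 1.5-fold for 137 higher members (0.905%) and 112 lower members (0.740%).

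Most ratios past 1.5-fold belonged to genes with few counts. Among the 2822 members with 30 to 100 summed counts the SD of the ratios was 0.59, and 418 were past 1.5-fold higher and 289 lower. Among the 1233 members with at least 3000 counts the SD was 0.15, and 1 was past 1.5-fold higher and 4 lower. At high counts ratios differed from 0 by more than counting error more often, and the interval excluded 0 for 58.6% of these 1233 members against 21.1% of the members with the fewest counts. Genes with a provisional LOC symbol made up 2579 of the members, and 17.0% of them were past 1.5-fold in either direction against 6.49% of the 12557 others. At the edge of the rule, LOC121136665 entered with a mean of 1.00 TPM and LOC121136246 stayed out with 0.995 TPM. *Ppm1j* entered with 30 summed counts and *Mettl7b* stayed out with 29.9.

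**Figure D1:**
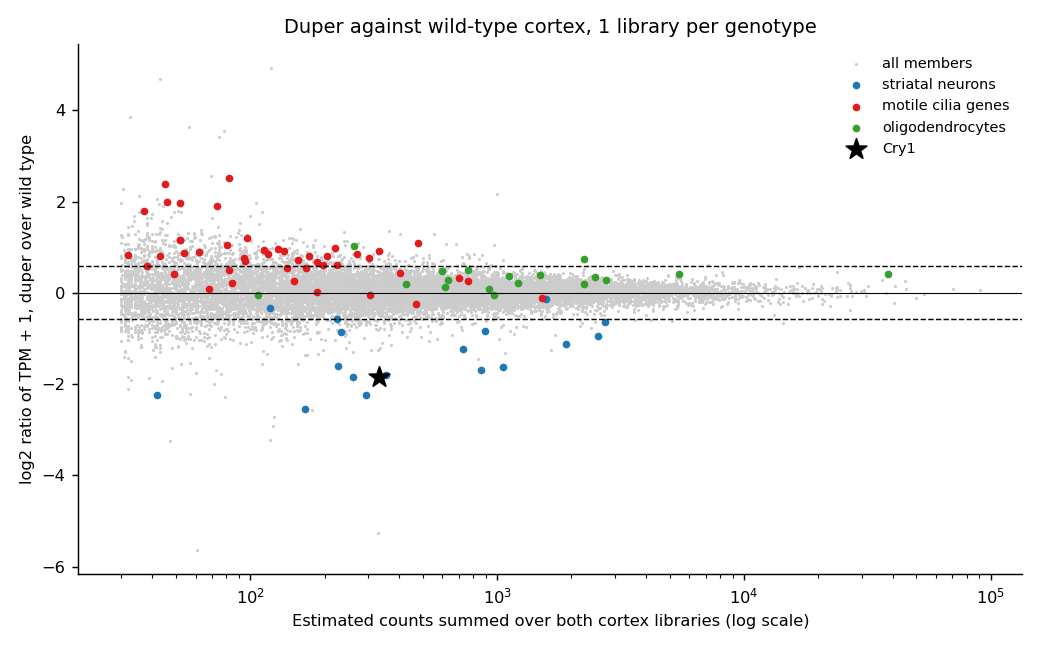
Each point is 1 of the 15136 members, placed by its estimated counts summed over both cortex libraries (x axis, log scale) and its log2 ratio of TPM + 1, duper over wild type (y axis); dashed lines mark 0.58 and −0.58. The spread narrows as counts grow, the striatal neuron list (blue) lies below 0, most motile cilia genes (red) and oligodendrocyte genes (green) lie above 0, and the star marks Cry1 at −1.84.

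*Cry1*, the mutated gene, checks the labels. It had 33.3 TPM from 244 estimated counts in wild-type cortex against 8.56 TPM from 88 counts in *duper* cortex, a ratio of −1.84 (interval −2.33 to −1.60). The annotation holds 3 *Cry1* transcripts, and all were lower in *duper*. The longest, of 2930 bases, had 12.9 TPM in wild type against 1.27 TPM in *duper*, and its share of *Cry1* TPM was 38.7% in wild type and 14.8% in *duper*. The 2414-base transcript had 2.18 TPM in wild type against 0 in *duper*. The 2270-base transcript had 18.2 TPM and 7.29 TPM, so that it made up 54.8% of *Cry1* TPM in wild type against 85.2% in *duper*. In the SCN libraries the order was different, since the 2414-base transcript took 1.92% of *Cry1* TPM in wild type against 86.8% in *duper*, and the 2270-base transcript 61.3% and 0%. Transcripts of 1 gene share sequence, and their estimated counts rest on how the shared reads were divided among them. The 20 members nearest to *Cry1* in the order of the annotation, 10 on each side, had a median ratio of −0.00 and ran from −0.44 to 0.48, with 0 past 1.5-fold in either direction. *Btbd11*, next to *Cry1* on one side, had a ratio of 0.32 (0.09 to 0.59), and *Mterf2*, next to it on the other, −0.41 (−0.87 to −0.03).

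The other clock genes were close to equal in the cortex libraries. All 25 listed clock genes found in the files were members, and their median ratio was 0.02. Past 1.5-fold, 1 was higher and 1 lower, against 4.68% and 3.60% of all members. The lower gene was *Cry1*. Among the activators of the loop, *Arntl* had a ratio of 0.18, *Clock* −0.09 and *Npas2* −0.22. Among its repressors, *Cry2* had 0.06, *Per1* 0.12, *Per2* 0.28 and *Per3* −0.00. *Bhlhe40* and *Bhlhe41*, which also repress CLOCK targets, had 0.31 (0.19 to 0.43) and 0.30 (0.09 to 0.54). The output factors *Dbp*, *Tef* and *Hlf* had 169 and 155, 192 and 189, and 162 and 191 TPM in wild type and *duper*. Of these 3, *Hlf* alone had an interval that excluded 0, at 0.23 (0.17 to 0.30). *Ciart*, a repressor of the loop, had 0.32 and *Nfil3*, which opposes *Dbp*, −0.28.

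Genes of striatal neurons were lower together in *duper* cortex. The striatum lies beneath the cortex, and its spiny projection neurons use dopamine and adenosine receptors and opioid peptides. Of 20 listed genes, 17 were members, all 17 had a ratio under 0, 14 were past 1.5-fold lower and 0 higher, and the median was −1.23, against a median of 0.03 and 3.60% past 1.5-fold lower over all members. Summed over the list, the level was 977 TPM in wild type against 437 TPM in *duper*. The intervals of 12 genes lay wholly beyond 1.5-fold. The 3 listed genes that were not members had few counts, with *Isl1* at 8 and 19 counts, *Serpina9* at 4 and 2, and *Ido1* at 6 and 7. The list was chosen with earlier results of these data known.

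Receptors of these neurons were among the lower genes. *Adora2a*, an adenosine receptor of striatal neurons that project to the pallidum, had 19.4 TPM in wild type against 2.49 TPM in *duper*, from 139 and 28 counts, a ratio of −2.55 (−3.60 to −2.37). *Drd2*, the dopamine receptor of the same neurons, had 20.6 TPM and 6.07 TPM, a ratio of −1.61 (−2.19 to −1.34). *Drd1*, the dopamine receptor of the other large class of striatal projection neurons, had 22.4 TPM and 5.74 TPM, a ratio of −1.80 (−2.31 to −1.63). Markers of both classes were thus lower in *duper*. The orphan receptor *Gpr6* had 5.48 TPM and 0.38 TPM, a ratio of −2.23, from 38 and 4 counts.

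Peptides and signalling proteins of these neurons were lower as well. *Penk*, the precursor of enkephalin, had 203 TPM in wild type against 64.9 TPM in *duper*, a ratio of −1.63 (−1.83 to −1.45) from 713 and 347 counts. *Pdyn*, the precursor of dynorphin, had 17.2 TPM and 9.11 TPM, a ratio of −0.85 (−1.31 to −0.53). *Ppp1r1b* encodes DARPP-32, the phosphatase inhibitor that dopamine signalling controls, and it was the most abundant gene of the list. It had 227 TPM and 104 TPM, a ratio of −1.11 (−1.26 to −0.99) from 1117 and 777 counts. *Rgs9*, which shortens G protein signalling, had 32.2 TPM and 6.03 TPM, a ratio of −2.24 (−2.84 to −2.02). *Pde10a*, a phosphodiesterase of cyclic nucleotides, had 58.5 TPM and 29.96 TPM, a ratio of −0.94 (−1.08 to −0.85). The transcription factors of the list gave the smallest ratios, with −0.14 for *Foxp1*, which cortical neurons also use, −0.32 for *Six3* and −0.57 for *Rarb*.

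Other genes of the same signalling chain were also lower. They were picked after their values were seen, so they are no support for a direction. *Gng7*, the G protein gamma subunit of striatal dopamine signalling, had 96.6 TPM in wild type against 40.1 TPM in *duper*, a ratio of −1.25 (−1.42 to −1.13). *Adcy5*, the adenylyl cyclase it works with, had 61.5 TPM and 35.5 TPM, −0.78 (−0.91 to −0.68). *Gnal*, the alpha subunit, had −0.47 (−0.61 to −0.36). *Pde1b*, a calcium-activated phosphodiesterase, had −0.59 (−0.69 to −0.50), and *Oprk1*, the receptor of dynorphin, −1.002 (−1.86 to −0.75). In the SCN libraries *Gng7* had 0.00, *Adcy5* −0.13 and *Gnal* 0.14. Of the striatal list, 2 genes were past 1.5-fold lower in SCN, among them *Drd1* at −0.89. How much striatum each cortex pool held was not measured, and its part in these ratios was not tested.

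**Figure D2:**
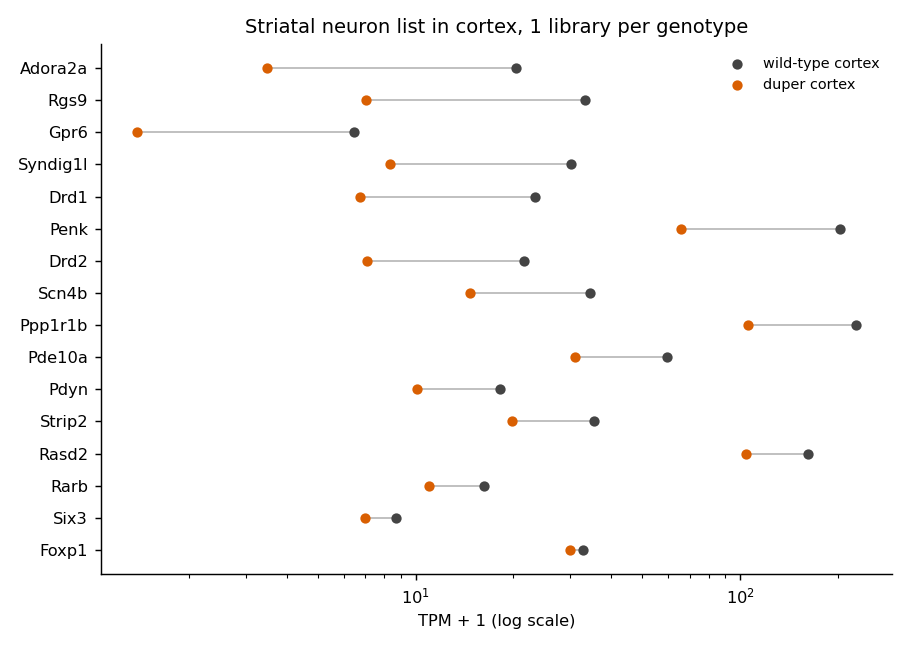
TPM + 1 (x axis, log scale) of the striatal neuron list, 1 of its 17 members not shown, in the wild-type cortex library (grey) and the duper cortex library (orange), with 1 library per genotype and no error bar. The orange point lies to the left of the grey point for every gene shown, and the gap is widest for Adora2a and narrowest for Foxp1.

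Markers of cortical neurons were present at high levels in both libraries, and most were within 1.5-fold. All 28 listed genes of cortical projection neurons were members, with a median ratio of −0.09. Past 1.5-fold, 0 were higher and 3 lower, beside 4.68% and 3.60% of all members. *Camk2a*, a calcium-dependent kinase of excitatory synapses, had 1335 TPM in wild type against 1146 TPM in *duper*, a ratio of −0.22 (−0.25 to −0.19). *Slc17a7*, the vesicular glutamate transporter of cortex, had 767 TPM and 669 TPM, −0.20 (−0.25 to −0.15). The 3 genes past 1.5-fold were *Cplx3* and *Nr4a2*, which mark the deepest layer and the claustrum, at −0.85 (−1.38 to −0.43) and −0.73 (−1.02 to −0.51), and *Emx1*, a homeobox factor of the cortical lineage, at −0.73 (−1.25 to −0.30). *Bcl11b*, which deep-layer cortical neurons and striatal neurons share, had −0.58 (−0.76 to −0.45). Of 20 listed genes of hippocampus, amygdala and piriform cortex, 16 were members, with a median of −0.07 and 1 past 1.5-fold lower, *Cbln1* at −0.95 (−1.63 to −0.52).

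Interneuron markers had no common direction. Of 24 listed genes 22 were members, with a median of −0.01. Past 1.5-fold, 1 was higher and 2 lower, against 4.68% and 3.60% of all members. *Calb2* (calretinin, a calcium-binding protein) had 31.5 TPM from 126 counts in wild type against 144 TPM from 873 counts in *duper*, a ratio of 2.16 (1.92 to 2.47). This was the largest ratio of any member with at least 300 counts among those with a symbol other than LOC. *Npy*, the precursor of neuropeptide Y, had 253 TPM and 125 TPM, −1.01 (−1.26 to −0.77), and *Tac1*, the precursor of substance P, which striatal neurons also make, had 45.6 TPM and 24.0 TPM, −0.90 (−1.30 to −0.55). *Pvalb* and *Sst*, which mark the most numerous interneuron classes, had 194 and 506 TPM in wild type against 243 and 414 TPM in *duper*, ratios of 0.32 (0.10 to 0.54) and −0.29 (−0.43 to −0.15). Over the neuropeptide list, which shares *Penk*, *Pdyn*, *Npy* and *Tac1* with these lists, 17 of 29 genes were members and the median was −0.13. Of these, 5 were past 1.5-fold lower (against 3.60% of all members) and 0 higher. The fifth was *Vgf*, a secretory granule protein, with 114 TPM and 72.9 TPM and a ratio of −0.64.

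Genes of motile cilia were higher together in *duper* cortex. In brain these genes belong to the ependymal cells that line the ventricles. Of 52 genes in a list put together after the values were seen, 46 were members, 43 had a ratio over 0, 32 were past 1.5-fold higher (against 4.68% of all members) and 0 lower, and the median was 0.81. The choice of the list followed the values, so this count is no support for a direction. Genes such as *Tekt4* also met the count limit through the *duper* library. The median was 0.62 with at least 200 counts and 0.44 with a pseudocount of 5. The sum over the list was 364 TPM in wild type against 575 TPM in *duper*. *Ccdc153*, a ciliary protein found in ependyma, had 4.19 TPM from 7 counts in wild type against 28.9 TPM from 75 counts in *duper*, a ratio of 2.53 (1.67 to 4.15). *Tekt4* and *Tekt1*, filament proteins of the axoneme, had 2 and 5 counts in wild type against 43 and 47 in *duper*, ratios of 2.38 (1.89 to 6.92) and 1.96 (1.23 to 4.24). *Capsl* had 2.00 (1.09 to 4.12), *Cfap206* 1.89 (1.51 to 4.00) and *Fam216b* 1.79 (0.68 to 3.77). *Rsph1*, a radial spoke protein, was one of the more abundant genes of the list, with 19.1 TPM and 38.7 TPM and a ratio of 0.99 (0.57 to 1.49). *Foxj1*, the transcription factor that switches on motile cilia genes, had 6.91 TPM and 8.46 TPM, a ratio of 0.26 (−0.20 to 0.80), an interval that includes 0. *Spag6* and *Rfx3*, which other cells use as well, had −0.23 (−0.51 to 0.03) and −0.12 (−0.28 to 0.02).

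**Figure D3:**
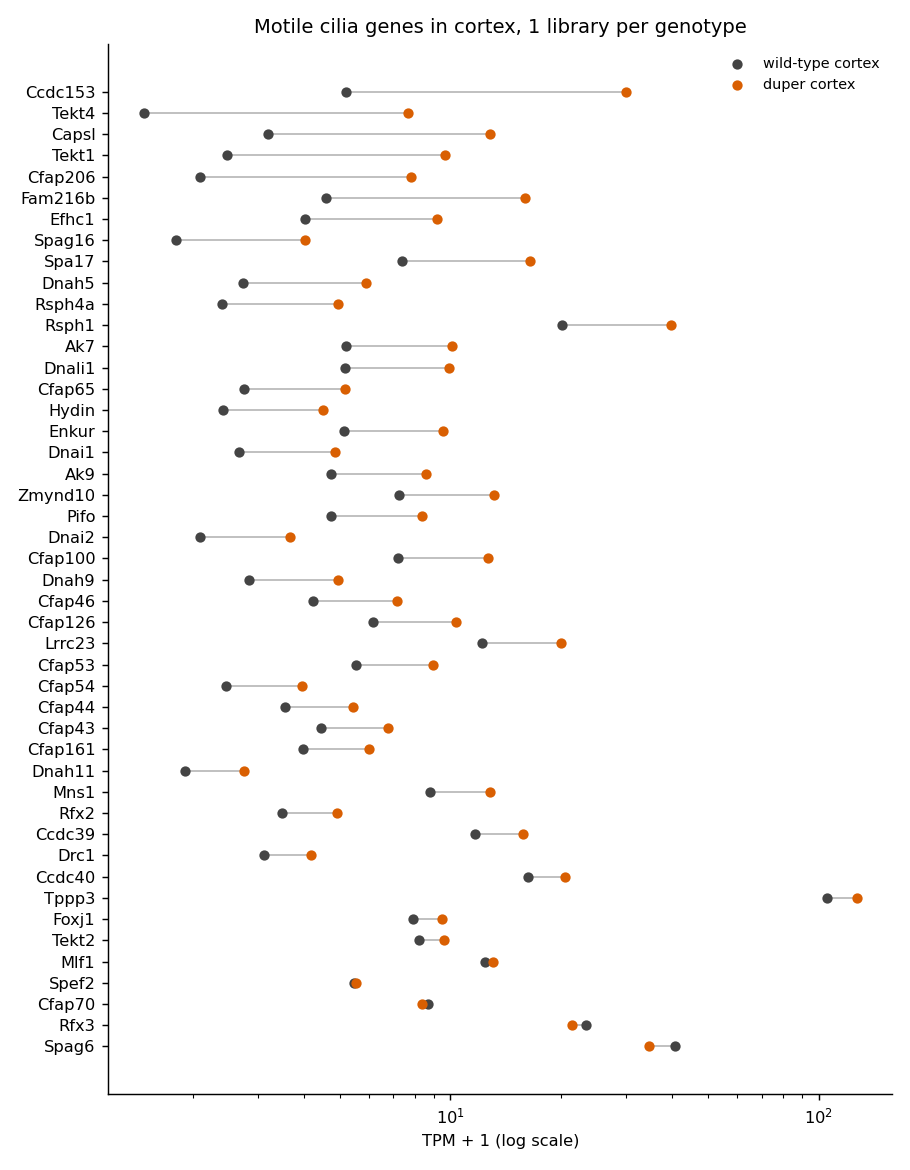
TPM + 1 (x axis, log scale) of the 46 member genes of the motile cilia list in the wild-type cortex (grey) and the duper cortex (orange), ordered by their ratio, with 1 library per genotype and no error bar. The orange point lies to the right for 43 genes, and the list was put together after the values were seen.

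Genes of choroid plexus and ependyma did not share a direction. Of 20 listed genes 18 were members, with a median of 0.42, 8 past 1.5-fold higher and 1 lower. Over all members, 4.68% were higher and 3.60% lower. The higher genes were *Ccdc153*, *Rsph1*, *Dynlrb2*, *Cfap126* and *Enkur* of cilia, with ratios of 0.76 to 2.53, *Rarres2* at 0.66 (0.16 to 1.24), the prolactin receptor *Prlr* at 0.80 (0.64 to 1.38), and *Cldn2*, a tight junction protein of choroid plexus, at 0.88 (0.53 to 1.46). *Ttr*, which carries thyroid hormone in cerebrospinal fluid and is the most abundant choroid plexus gene, had 1837 TPM in wild type against 2505 TPM in *duper*, a ratio of 0.45 (0.38 to 0.52). Other choroid plexus genes had ratios below 0, with *Kcnj13* at −0.25 (−0.62 to 0.08), *Aqp1* at −0.43 (−0.90 to −0.05), and *Kl* (klotho) at −0.90 (−1.58 to −0.65), with 6.49 TPM and 3.004 TPM. How much ventricle wall each pool held was not measured, and its part in these ratios was not tested.

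Several developmental transcription factors were higher as well. *Eomes*, a T-box factor, had 0 counts in wild-type cortex against 69 in *duper* cortex, at 4.91 TPM, which is at least 15.2-fold higher against a floor of 3 counts in the wild-type library. Members of the Zic and Ebf families of transcription factors, grouped after their values were seen, were all 9 higher, with a median of 1.15. Among members with a known transcript length, 45.6% had a ratio below 0. Grouped in this way, and with *Ebf3* meeting the count limit through the *duper* library, the 9 are no support for a direction. Their median was 0.55 with a pseudocount of 5 and 0.59 with a minimum of 200 counts. *Ebf3* had 0.49 TPM and 4.86 TPM, from 6 and 99 counts, a ratio of 1.97 (2.16 to 4.71 without the added 1). *Ebf2* had 1.27 (1.15 to 2.85), *Zic4* 1.26 (1.07 to 2.84) and *Zic1* 1.15 (0.79 to 1.70), the last from 8.64 TPM and 20.3 TPM. Of 23 listed genes of thalamus and hypothalamus, 18 were found by symbol and 10 were members, with a median of 0.17. Past 1.5-fold, 3 were higher (against 4.68% of all members) and 0 lower. Those 3 were *Calb2*, *Prkcd*, a protein kinase C of thalamic neurons, at 6.74 TPM and 16.0 TPM and 1.14 (0.80 to 1.72), and *Tcf7l2*, a thalamic transcription factor, at 6.50 TPM and 11.7 TPM and 0.77 (0.45 to 1.27). *Slc17a6*, the glutamate transporter of subcortical neurons, had 14.9 TPM and 21.0 TPM, 0.47 (0.22 to 0.77). The other side of the list held 4 members with ratios below 0, of which *Lef1*, a transcription factor of the Wnt pathway, had the lowest at −0.54 (−1.07 to −0.13). Listed genes not found by symbol are not in these counts. Nor are LOC genes abundant in SCN, such as LOC101826695, which had a cortex ratio of −5.26. The SCN libraries held *Calb2* at 289 and 340 TPM in wild type and *duper*. A list of olfactory bulb neurons, also put together afterwards, had 15 members of 22 and a median of 0.33. Past 1.5-fold, 4 were higher (against 4.68% of all members) and 0 lower. These were *Eomes*, *Calb2*, *Ebf3* and *Ddc*, which makes dopamine and serotonin, at 1.04 (0.63 to 1.67). *Eomes* and *Ebf3* met the count limit through the *duper* library, so this count is no support for a direction. The list median was −0.02 with a mean of at least 5 TPM and −0.12 with at least 200 counts. *Th* and *Cdhr1*, which bulb neurons also use, had ratios of 0.03 and 0.33.

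Receptors known from hypothalamus and septum stood among the 83 genes with a symbol other than LOC that lay wholly beyond 1.5-fold higher. Named after their values were seen, they were *Gpr101* at 1.36, with 3.41 TPM in wild type against 10.3 TPM in *duper*, *Trhr*, the receptor of thyrotropin-releasing hormone, at 1.29, and *Galr1*, a galanin receptor, at 0.85. Their levels in the SCN libraries were higher than in cortex. *Gpr101* had 41.7 and 45.6 TPM there in wild type and *duper*, *Trhr* 16.0 and 23.9 TPM, and *Galr1* 11.8 and 17.4 TPM. None of these receptors was past 1.5-fold in SCN. They were picked from the genes that were higher, and receptors of the same regions that were not higher were not counted. They are therefore no support for a direction.

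Glial genes were higher by smaller amounts. Of the 18 oligodendrocyte genes found in the files, all were members, 16 had a ratio over 0, the median was 0.31, and 2 were past 1.5-fold higher and 0 lower. The interval of 13 lay above 0, against 18.2% of all members. *Aspa*, which breaks down N-acetylaspartate, had 18.8 TPM and 39.2 TPM, a ratio of 1.02 (0.65 to 1.49), and *Ermn*, a cytoskeletal protein of myelinating cells, 100.5 TPM and 168 TPM, 0.74 (0.61 to 0.88). *Mal*, a protein of compact myelin, had 275 TPM and 367 TPM, 0.41 (0.33 to 0.50). The 12 members of the list of oligodendrocyte precursors had a median of −0.01 with 0 past 1.5-fold in either direction. In the SCN libraries the oligodendrocyte list had a median of −0.17.

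All 19 astrocyte genes found in the files were members, 18 had a ratio over 0, the median was 0.14, and 1 was past 1.5-fold, *Id3* at 0.58 (0.13 to 1.10). The intervals of 13 lay above 0 and of 0 below, against 18.2% and 12.9% of all members. *Aqp4*, the water channel of astrocyte endfeet, had 75.7 TPM and 96.02 TPM, a ratio of 0.34 (0.24 to 0.45), and *Sox9* had 0.53 (0.34 to 0.75), while the most abundant, *Glul*, which makes glutamine from glutamate, had 0.14 (0.10 to 0.18). Microglia and macrophage genes, 20 members, had a median of 0.19 and 1 past 1.5-fold higher, the fractalkine receptor *Cx3cr1* with 14.3 TPM and 22.8 TPM and a ratio of 0.63 (0.34 to 1.01). *P2ry12*, a purine receptor of microglia, had 0.51 (0.23 to 0.83), while the complement genes *C1qa*, *C1qb* and *C1qc* had −0.08, 0.27 and −0.02. Their markers were thus not uniformly higher.

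Lists of vessel and connective tissue genes had medians a little under 0. The 19 endothelial genes had a median of −0.06 with 0 past 1.5-fold, and the largest ratio was that of *Cldn5*, the tight junction protein of the blood-brain barrier, at −0.54 (−0.73 to −0.36). Pericyte and smooth muscle genes, 14 members, had a median of −0.19, and 1 was past 1.5-fold lower, *Tagln* at −0.59 (−1.25 to −0.02). Meningeal and fibroblast genes, 18 members, had a median of −0.09 and 1 past 1.5-fold lower, *Islr* at −0.65 (−1.31 to −0.17). In the SCN libraries the meningeal list was far from equal, with a median of −1.24 and 17 of 18 past 1.5-fold lower. The 35 collagen genes that were members had a median of −0.15. Past 1.5-fold, 1 was higher and 3 lower, against 4.68% and 3.60% of all members. The higher one was *Col25a1* at 0.58 (0.41 to 0.84). *Col24a1* had 5.63 TPM and 2.06 TPM, −1.12 (−1.97 to −0.95), and *Col11a1* 17.8 TPM and 9.69 TPM, −0.81 (−1.09 to −0.66).

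Interferon-stimulated genes were higher by a moderate amount. Of 45 found in the files 33 were members, 25 had a ratio over 0, the median was 0.33, and 10 were past 1.5-fold higher (against 4.68% of all members) and 0 lower. *Ifit2*, an antiviral protein induced by interferon, had 0.50 TPM from 5 counts in wild type against 2.31 TPM from 35 counts in *duper*, a ratio of 1.14 (0.86 to 3.92). *Siglec1*, a lectin of macrophages, had 23 and 99 counts and a ratio of 0.99 (0.83 to 2.22), and *Lgals9*, a galectin, 11 and 47 counts and 1.15 (0.42 to 2.49). The interval of *Ifit2* and that of *Siglec1* lay wholly beyond 1.5-fold. The antiviral kinase *Eif2ak2* had 0.76, the transcription factor *Irf1* 0.87, and the poly-ADP-ribose polymerases *Parp12* and *Parp14* 0.80 and 0.68. *Irf7*, which drives interferon genes, had 0.99, and *Uba7*, which activates ISG15 for attachment to proteins, 0.61. The immunoproteasome subunit *Psmb8* had 0.67, with an interval that included 0. *Isg15* itself, at 3 and 18 counts, was below the count limit. At higher levels the ratios were smaller. *B2m*, the light chain of MHC class I, had 188 TPM and 255 TPM, 0.43 (0.26 to 0.61), and *Stat2* had −0.30 (−0.55 to −0.08). Among members of the list with at least 200 counts the median was 0.11.

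Some neutrophil and plasma protein genes were lower, in lists put together after the values were seen. Of the 17 neutrophil granule genes 12 were found and 5 were members, 4 of them past 1.5-fold lower and 0 higher. Genes this low met the limit of 30 counts mainly through the library in which they were higher, so this count is no support for a direction. Without that limit the median of the list was −0.92 in place of −1.87. *S100a9*, a calcium-binding protein of neutrophils, had 34.5 TPM from 44 counts in wild type against 6.59 TPM from 13 counts in *duper*, a ratio of −2.22 (−3.40 to −1.47). *Ltf* (lactoferrin) had 33 and 6 counts and −1.87 (−4.60 to −1.78), and *Prg2*, an eosinophil granule protein, 25 and 8 counts and −1.91 (−3.62 to −1.07). *Elane*, below the count limit, had 16 and 5 counts. Of 12 members among 22 plasma proteins made by liver, 5 were past 1.5-fold lower (against 3.60% of all members) and 0 higher. The median was −0.40. The summed level of the list ran the other way, with 2122 TPM in wild type against 2706 TPM in *duper*, most of it from *Ttr*, which choroid plexus also makes. Albumin (*Alb*) had 112 TPM from 677 counts and 43.9 TPM from 402 counts, −1.33 (−1.53 to −1.17), against 107273 and 112117 TPM in the liver libraries. The erythroid list had 5 members with a median of −0.16, of which *Alas2*, the heme synthesis enzyme of red cell precursors, had 36 and 24 counts and −0.96 (−2.001 to −0.41). The blood content of the tissue was not measured.

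Immediate early genes, which neurons switch on within minutes of activity, had ratios on both sides of 0, more of them below. All 28 were members, with a median of −0.08, 19 with a ratio under 0 and 9 over it. Past 1.5-fold, 5 were lower (against 3.60% of all members) and 0 higher. The intervals of 10 lay below 0 and of 4 above, against 12.9% and 18.2% of all members. *Jun* had 39.0 TPM and 20.2 TPM, a ratio of −0.91 (−1.25 to −0.64), *Ier2* 11.1 TPM and 5.55 TPM, −0.89 (−1.46 to −0.55), *Jund* 97.4 TPM and 58.0 TPM, −0.74 (−0.93 to −0.57), *Nr4a2* −0.73, and *Arc*, which acts at active synapses, 118 TPM and 77.1 TPM, −0.60. *Egr1* had 162 TPM and 157 TPM, −0.04 (−0.14 to 0.05), and *Nr4a1* 97.7 TPM and 120 TPM, 0.29 (0.16 to 0.43). *Jun*, *Jund* and *Ier2* have no introns. Of members with a symbol other than LOC, 228 had a longest transcript that covered at least 95% of the gene's span in the annotation, taken here as intronless. Their median ratio was −0.09, and 8.77% were past 1.5-fold lower and 3.95% higher, beside a median of 0.02 with 2.79% lower and 3.59% higher over the 12328 others. *Cebpb* at −1.43, *Hnrnpa0* at −1.05, *Bhlhe22* at −0.99 and *Cdk5r2* at −0.90, with 171 TPM and 90.8 TPM, were among the intronless genes that were lower. Gene length moved with the ratio in a small way, with a median of −0.04 for the 1082 members with transcripts shorter than 1000 bases and 0.05 for the 839 with 8000 or more. The part of gene structure in the ratios was not tested.

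Genes of synapses and of basic metabolism were near equal. Of 39 glutamate and GABA receptor subunits 0 were past 1.5-fold, the median was 0.05, and the ratios ran from −0.44 for *Grik5* to 0.57 for *Gabrg1*. *Gria2*, an AMPA receptor subunit, had 430 TPM and 453 TPM, 0.08 (0.03 to 0.12). Of 31 presynaptic and vesicle genes 0 were past 1.5-fold, the median was −0.03, and *Snap25*, a protein of vesicle fusion, had 2975 TPM and 3148 TPM, 0.08 (0.05 to 0.11). Of 24 sodium and calcium channel subunits 1 was past 1.5-fold lower, *Scn4b* at −1.23, which is also in the striatal list, and the median was −0.08. Respiratory chain subunits, 56 members, had a median of −0.05 and 1 past 1.5-fold lower, *Atp5f1d*, a subunit of ATP synthase, with 317 TPM and 188 TPM, −0.75 (−0.91 to −0.59). Of 15 glycolytic enzymes, 34 heat shock and chaperone genes and 21 cholesterol synthesis genes, 0 were past 1.5-fold, with medians of 0.05, 0.08 and 0.01. The largest ratio of a glycolytic enzyme, 0.57 for *Gapdh*, stood beside −0.66 for its copy LOC121141373 and −0.04 for the sum of both. Glucocorticoid-responsive genes, 17 members, had a median of −0.10 and 1 past 1.5-fold lower, *Hif3a* at −0.69 (−1.54 to −0.42).

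**Figure D4:**
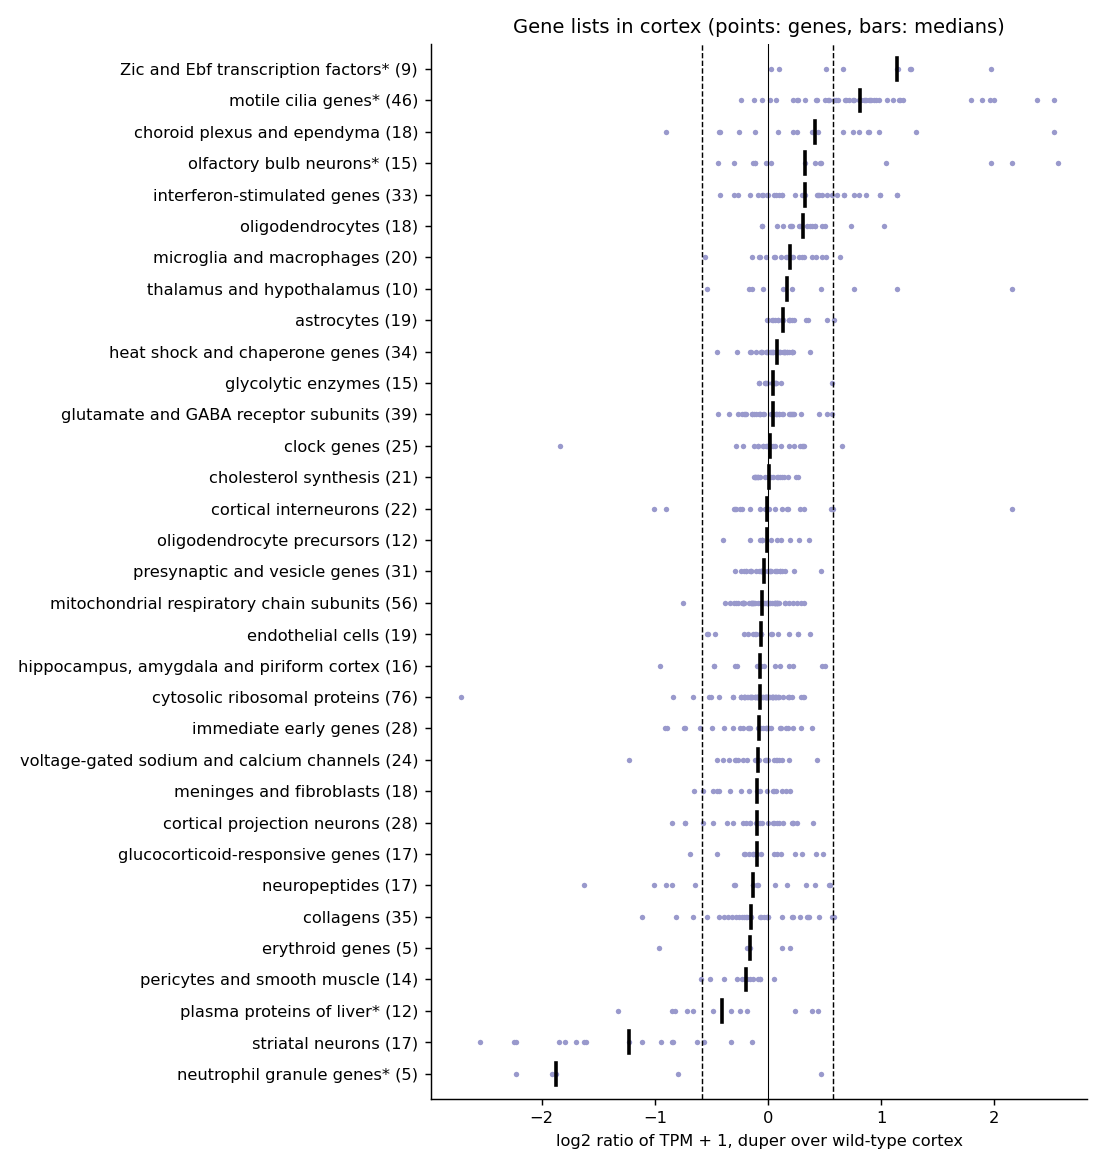
Log2 ratio of TPM + 1, duper over wild-type cortex (x axis), for the members of each gene list (rows, number of members in brackets), with points for genes and bars for medians; dashed lines mark 0.58 and −0.58, and asterisks mark lists put together after the values were seen. Striatal neurons have a median of −1.23 and motile cilia genes of 0.81, while clock genes have a median of 0.02 and glutamate and GABA receptor subunits of 0.05.

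Cytosolic ribosomal proteins, 76 members, had a median of −0.07 with 3 past 1.5-fold lower (against 3.60% of all members) and 0 higher. These were *Rpl18* at −0.84 (−1.39 to −0.35), *Rps15* at −0.66 (−0.86 to −0.46) and *Rps27*, with 137 TPM from 101 counts in wild type against 20.0 TPM from 23 counts in *duper*, −2.72 (−3.50 to −2.11). A copy of *Rps27* in the annotation, LOC121134231, had 381 TPM and 545 TPM, a ratio of 0.52. Summed over both, the level was 518 TPM and 565 TPM, a ratio of 0.12, and the share of *Rps27* in the sum was 26.5% in wild type and 3.55% in *duper*. Reads can be split between such copies, so the ratio of *Rps27* on its own is uncertain.

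Single genes outside the lists had some of the largest ratios. *Grifin*, a galectin-like gene best known from the eye lens, had 0 counts in wild-type cortex against 43 in *duper* cortex, at 24.6 TPM, at least 9.49-fold higher against the floor of 3 counts. Its SCN levels were 13.0 TPM in wild type against 27.5 TPM in *duper*. *Ctxn3* had 14 and 97 counts and a ratio of 1.77 (1.39 to 3.12), *Tmem54* had 4 and 38 counts and 2.06 (1.19 to 4.61), and *Slc3a1*, the subunit of an amino acid transporter, had 2 and 42 counts and 1.91 (1.70 to 6.16). *Asb4*, which is abundant in hypothalamus, had 2 and 49 counts and 1.79 (2.09 to 7.11 without the added 1), and its SCN levels were 17.6 and 17.2 TPM. *Clec12a*, a lectin receptor of myeloid cells, had 2 and 28 counts and 1.96 (1.19 to 6.30). Among the lower genes, *Gng10*, a G protein gamma subunit, had 46.7 TPM from 144 counts and 7.05 TPM from 33 counts, −2.57 (−3.32 to −2.17), with 27.9 and 36.2 TPM in SCN. *Smim32* had 55 and 16 counts and −1.99 (−3.28 to −1.56), and *Rem2*, a small GTPase that neurons induce with activity, 45 and 15 counts and −1.75 (−3.13 to −1.31).

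LOC genes stood at both ends. LOC101842397 had 60.7 counts in the wild-type cortex, at 48.7 TPM, and 0 in *duper*, at least 30.5-fold lower against the floor. It had 594 counts and 0 in the SCN libraries and 1002 and 46.3 in liver. LOC121139381 and LOC121138806 had 0 counts in wild-type cortex against 78.03 and 74.3 in *duper*, at least 17.2-fold and 16.4-fold higher. Both also had under 10 counts in the wild-type SCN and liver libraries and 52.3 to 427 in those of *duper*. LOC121133374 had 1.21 and 55.2 counts in cortex, a ratio of 3.63 (2.54 to 9.43), and 1.22 and 502 in liver. These 4 genes had the same direction in all 3 tissues. After rounding, LOC121135971 and LOC121138880 had 0 counts in wild-type cortex against 121 and 32.5 in *duper*, at least 26.8-fold and 7.18-fold higher. In SCN the first had 52.7 TPM and 21.6 TPM, a ratio of −1.25, and the second 1.69 TPM in wild type against 0 in *duper*. LOC121141518 had 43.2 and 4.01 counts and a ratio of −3.24 (−5.98 to −2.58).

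The other LOC genes with the lowest ratios were neighbours. LOC121140522, LOC121140244 and LOC101826695 lie together between *Mrps26* and *Ubox5* in the annotation of the BCM_Maur_2.0 assembly. LOC101826695 had 257 TPM from 318 counts in wild-type cortex against 5.74 TPM from 11 counts in *duper*, a ratio of −5.26 (−6.50 to −4.62). LOC121140522 had 104 TPM and 10.3 TPM, −3.21 (−4.19 to −2.57), and LOC121140244 had 103 TPM and 12.7 TPM, −2.91 (−3.78 to −2.31). All 3 were among the abundant genes of the SCN libraries, where LOC101826695 had 6217 TPM in wild type against 5601 TPM in *duper*, and its ratio was −0.15. The cortex level was 3.49% to 4.13% of the SCN level for the 3 genes in wild type, and 0.102% to 0.463% in *duper*. Their neighbours *Mrps26* and *Ubox5* had cortex ratios of −0.03 and 0.19.

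Set beside SCN and liver, most of the genes that differed in cortex were not past 1.5-fold there. Of the 137 genes wholly beyond 1.5-fold higher in cortex, 129 met the same level rule in SCN, and 29 were past 1.5-fold higher there, where 2.53% of all cortex members with an SCN value were. Another 13 were past 1.5-fold lower in SCN. Of the 112 lower genes, 103 had an SCN value, and 15 were past 1.5-fold lower there, beside 3.80% of cortex members, and 6 were past it in the higher direction. In liver, 12 of 68 higher genes and 13 of 55 lower genes were past 1.5-fold in the same direction, beside 2.71% and 7.17% of cortex members, and 11 and 4 were past it in the opposite direction. LOC genes made up 22 of the 29 shared with SCN in the higher direction. All 3 tissues came from the same hamsters, and no difference between tissues was tested.

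The genes past 1.5-fold in the same direction in all 3 tissues numbered 6 among the higher and 8 among the lower. The higher ones were *Siglec1*, LOC101823249, LOC101844121, LOC121133374, LOC121138806 and LOC121139381. The lower ones were *Cry1*, *Rps27*, LOC101833678, LOC101842397, LOC121139968, LOC121141276, LOC121141518 and *Mettl6*. The last, a tRNA methyltransferase, had 107 and 48.7 counts in cortex and ratios of −1.57 in cortex, −1.36 in SCN and −1.08 in liver. Summed with its copy LOC121134231, *Rps27* was not lower, with ratios of 0.12 in cortex, 0.43 in SCN and 0.38 in liver. The striatal list had a median of 0.07 in SCN, with 0 of 19 members past 1.5-fold higher and 2 lower, *Ppp1r1b* at −1.06 and *Drd1* at −0.89. Motile cilia genes had a median of −0.18 in SCN, with 2 of 47 past 1.5-fold higher and 6 lower. The list of choroid plexus and ependyma had a median of −0.28 there and *Ttr* a ratio of −2.73, while interferon-stimulated genes had a median of 0.38 in SCN and 0.36 in liver. Lists of Y-linked genes, of the X-inactivation RNA and of nuclear long non-coding RNAs were searched for by symbol, and 0 were found in the files, so the sex of the pools could not be checked.

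**Figure D5:**
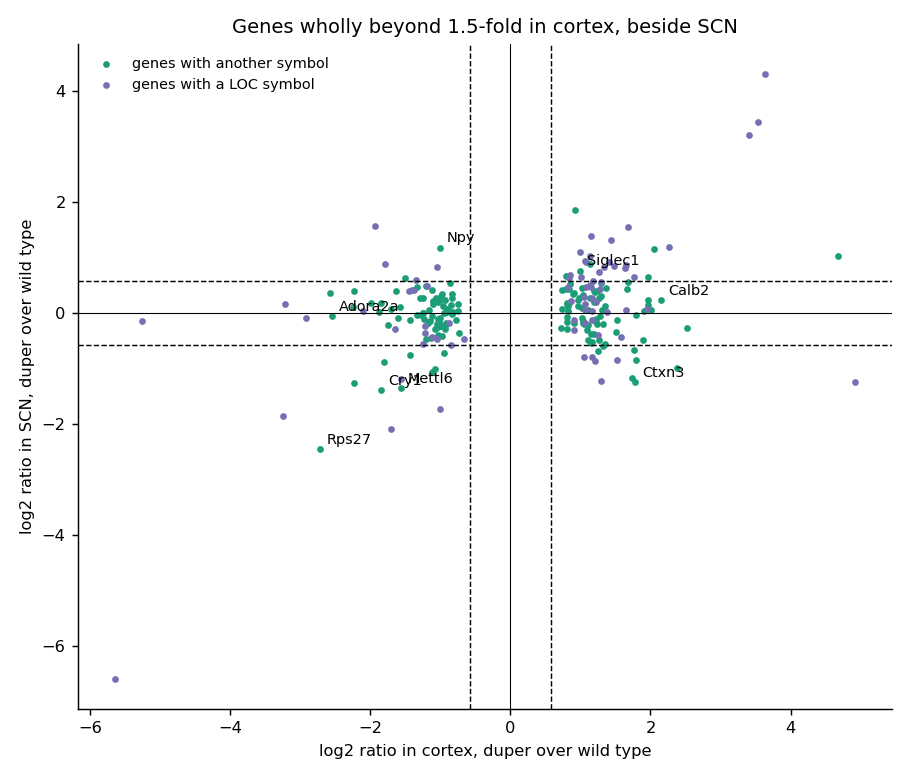
Log2 ratio of TPM + 1, duper over wild type, in cortex (x axis) and in SCN (y axis) for genes whose cortex interval lay wholly beyond 1.5-fold and that met the same level rule in SCN, 129 higher and 103 lower; dashed lines mark 0.58 and −0.58. Most points lie between the horizontal dashed lines, while Cry1, Rps27, Mettl6 and some LOC genes (purple) lie past 1.5-fold in the same direction in both tissues. Rps27 is plotted without its copy LOC121134231.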

How the data were processed

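Cortex libraries of wild-type and *duper* hamsters were analysed, with SCN and liver libraries beside them, in all 6 deposited tables of 67818 transcripts. The libraries were TruSeq stranded mRNA, sequenced as paired reads on an Illumina sequencer. RNA of 4 hamsters per genotype was mixed before library construction for cortex and SCN, whereas the liver tables hold 4 libraries merged. The authors quantified reads against the MesAur2.0 transcripts with kallisto, whose version is not given in the sources used here, and deposited estimated counts and TPM values per transcript. Estimated counts need not be whole, since kallisto divides shared reads. They and TPM were summed by gene symbol here, using the annotation of the BCM_Maur_2.0 assembly (31590 of 31593 symbols matched).

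Members, the gene lists (31, with 5 more added after values were seen) and named genes were chosen with earlier results of these data known. Named genes were *Cry1*; the 15 highest and 15 lowest ratios among genes with an interval wholly beyond 0.58 and a symbol other than LOC; the 5 highest and 5 lowest LOC genes by the same rule; per list, up to 4 members with the largest ratios whose interval excluded 0 and up to 4 with the highest TPM; and genes the study names. Others were named after their values were seen, as were neighbours, copies, receptors and genes quoted for a level near 0. With 1 library per genotype no test was made and no p-value is given, in place of the count model of the study. The ratio used a pseudocount of 1 TPM. Intervals are 95% Clopper-Pearson intervals of the *duper* share of a gene's estimated counts, not rounded, turned into a TPM ratio. They were tested before use on simulated whole counts with known ratios and a common scale, not on fractional counts. A floor of 3 counts per library stood in for a count of 0. Intervals and floors cover counting error only, since reads without molecular identifiers are not independent molecules. Alternatives changed the pseudocount, the scaling (TMM factors of edgeR 4.0.16), the filters, the depth and the fold. Python 3.11.15 with pandas 2.3.3, numpy 2.4.6, scipy 1.17.1 and matplotlib 3.10.9 and R 4.3.3 were used. Sequences were not used here, and some genes are not reported here.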

Additional observations from a re-analysis of the deposited data

Results flagged for a closer look

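The following genes were past 1.5-fold in opposite directions in cortex and in another tissue, with the counting intervals of both ratios wholly beyond 1.5-fold. With 1 table of pooled hamsters per genotype and tissue the difference between tissues was not tested.

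*Ctxn3* had a log2 ratio of 1.77 in cortex and −1.25 in SCN. *Ddc* had 1.04 in cortex and −1.03 in liver. *Ltf* had −1.87 in cortex and 0.96 in liver. LOC121135971 had 4.93 in cortex and −1.25 in SCN, and LOC121138880 had 3.86 in cortex and −0.87 in liver. The cortex ratios of both LOC genes set *duper* against a wild-type count of 0, so their size depends on the pseudocount.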

How the results depend on the processing

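A pseudocount of 5 TPM gave 246 genes higher and 230 lower, a median of 0.021 and a *Cry1* ratio of −1.50, while one of 0.1 gave 982 and 742. A mean of at least 5 TPM gave 397 higher and 363 lower, 63 wholly beyond 1.5-fold higher and 79 lower, and a median of 0.0233. A minimum of 200 counts gave 133 higher and 138 lower, with 33 and 46 wholly beyond. Keeping every gene with a count gave 2242 higher and 2131 lower, with 227 and 242 wholly beyond. A log2 threshold of 1 gave 176 higher and 112 lower. Leaving out LOC symbols, chosen after seeing the data, gave 451 higher, 83 wholly beyond higher and a median of 0.0228. The median ratio over members was 0.0031 on TMM-normalized CPM, 0.0206 with TPM rescaled by TMM factors, and 0.0232 after thinning *duper* to the wild-type total. With the fold threshold left as in the main setting, the higher share of calls ran from 49.1% to 57.2%. The log2 threshold of 1, with 176 higher and 112 lower, gave a larger higher share. The medians of the striatal list and of motile cilia genes moved to −1.04 and 0.44 with a pseudocount of 5. List medians that crossed 0 under an alternative were those of cholesterol synthesis (−0.01 to 0.05), interneurons (−0.04 to 0.00), olfactory bulb (−0.12 to 0.40), oligodendrocyte precursors (−0.04 to 0.05) and plasma proteins (−0.50 to 0.03). Each named gene was compared under each alternative that kept it. Of these ratios, 231 stayed within the counting interval of the main setting, widened to hold the main ratio. Another 47 moved outside it, and none turned its direction. For a gene with a count of 0 in a library the interval is open on 1 side. The cause of these moves was not tested, except that stricter filters leave fewer genes.

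No paired analysis was possible because each cortex group holds 1 library. Leaving out a replicate would leave a group empty, and no spread between hamsters can be given. Genes with under 100 counts had the widest intervals.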
